A study of Mus musculus with 6 samples.

Results

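The comparison described here sets 3 arrays titled experiment 1 against 3 arrays titled experiment 2, which are all 6 arrays of the study. Each experiment holds 1 array of wild-type mouse embryonic stem cells and 1 array of each of 2 embryonic stem cell lines, called null line 1 and null line 2 here, that are triple null for the linker histone genes H1c, H1d and H1e. The arrays were chosen by their titles alone and paired by line, so that each of the 3 lines gives 1 difference between experiments. Total RNA came from cells in exponential growth, and biotin-labelled cRNA was hybridised to Affymetrix mouse arrays of 12488 probe sets. The labels name no treatment, feeder layer, age or passage and leave unsaid what set the experiments apart and whether the cells were grown separately for each. P-values therefore cover the spread seen among these 6 arrays and nothing wider, part of which may be technical. The wild type is represented by a single line and the null genotype by 2.

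Linker histones sit on the outside of the nucleosome, beside the entering and leaving DNA, and help to compact chromatin. Embryonic stem cells are pluripotent, divide fast and are kept undifferentiated by culture conditions, and their expression of stress, metabolic and growth-factor genes is known to follow those conditions. A repeat of the same lines shows how far single genes move when the genotype stays the same, and this comparison asks which genes differed between the experiments in every line, whatever the genotype.

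All values are intensities made with MAS5, and differences are experiment 2 minus experiment 1 on the log2 scale, so that a negative value is lower in experiment 2. Values are listed in the order wild type, null line 1, null line 2. Of the 12488 probe sets, 7453 had a mean of at least 20.9 intensity units over the 6 arrays and were tested with limma in a model with terms for line and experiment. The trimmed mean of all probe sets was 100.1 on every array, a level that the scaling of the deposited values sets. The median of the tested probe sets was 97.2 to 99.7 in experiment 1 and 97.2 to 99.4 in experiment 2. Arrays of different lines correlated over the tested probe sets with an r of 0.969 to 0.979 within experiment 1 and 0.957 to 0.961 within experiment 2. The highest of 19 bacterial and yeast background controls was 9.2 to 12.5 in experiment 1 and 9.1 to 17.2 in experiment 2. The targeted gene that the array measured, H1f2 (H1c), followed the labels in both experiments. Its probe set 94288_at read 70.0, 11.1 and 13.0 in experiment 1 and 68.2, 11.5 and 14.4 in experiment 2. The probe sets of H1f3 (H1d) and H1f4 (H1e) were at background on all arrays, the wild type included, and check nothing.

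No single probe set passed the test between experiments, and the differences of the 3 lines had little in common. At a Benjamini-Hochberg adjusted p of 0.05, limma called 0 of 7453 probe sets (0%), and the smallest adjusted p was 0.132, for Dynll2. At an unadjusted p under 0.05 there were 501 probe sets (6.72%), of which 280 were higher (3.76%) and 221 lower (2.97%) in experiment 2. With the same data, 13 alternative analyses called between 0 and 6 probe sets, all of them lower in experiment 2. By permutation alone, 3 pairs cannot give a two-sided p below 0.25.

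The spread of the log2 differences was similar in the 3 lines, with an SD over the tested probe sets of 0.353 in wild type, 0.391 in null line 1 and 0.368 in null line 2. Across probe sets, the differences of wild type and null line 1 correlated with an r of 0.05, those of wild type and null line 2 with 0.09, and those of the null lines with 0.07. No array enters more than 1 of these differences, and the values describe probe sets on these arrays, which are not independent replicates. Of the variation around each probe set's mean, 18.8% lay between experiments, 50% between lines and 31.2% in neither. Each of these was spread over a different number of degrees of freedom, 1 for experiment, 2 for line and 2 for the rest, so that the share per degree of freedom was 18.8% for experiment, 25.0% for line and 15.6% for the rest. The median size of the difference between experiments was 0.11, the 90th percentile 0.33 and the 99th percentile 0.84, beside a median SE of 0.13.

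Direction was shared by all 3 lines in 1090 probe sets that were higher in experiment 2 (14.6%) and 1042 that were lower (14%). In 369 probe sets every experiment 2 array lay above every experiment 1 array (4.95%), and in 348 every one lay below (4.67%). A difference of at least 1.5-fold in every line was found for 13 probe sets that were higher (0.174%) and 14 that were lower (0.188%). On the measured values, at 2-fold in every line there was 1 higher probe set (0.0134%), of Hoxb5, and there were 6 lower ones (0.0805%), of Dynll2, Tmed9, Lmnb1, Ube2s, Map3k11 and the unnamed probe set 102796_at. Hoxb5 was at background on 1 array of experiment 1 and Map3k11 on 1 array of experiment 2, so that their folds in those lines are no exact values. Just inside that limit lay Hoxb5, whose smallest within-line difference was 1.0, and just outside lay Ap2b1, whose smallest was -0.89.

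**Figure D1:**
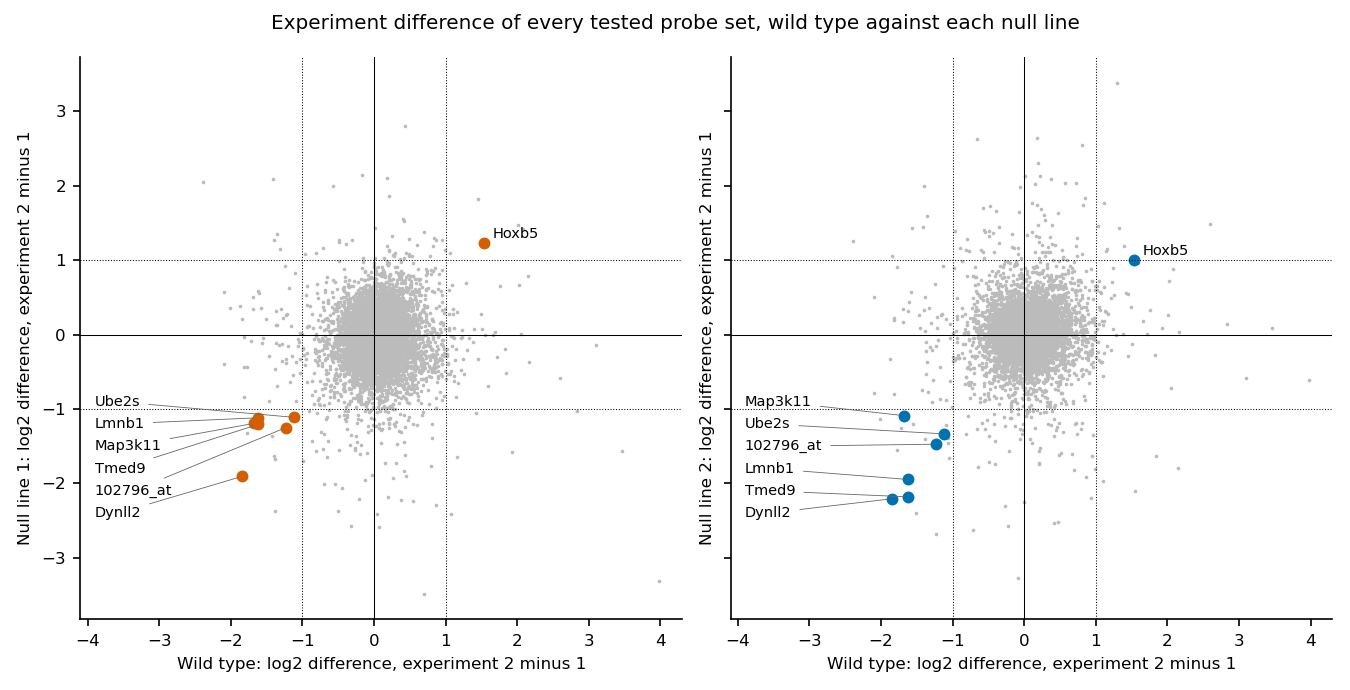
Log2 difference between experiments in wild type (x axis) against null line 1 (left, y axis) and null line 2 (right, y axis), with 1 grey point for each of the 7453 tested probe sets, dotted lines at 2-fold and coloured points for the 7 probe sets that differed at least 2-fold in every line. The grey cloud is round in both panels (r of 0.05 and 0.09), and 6 of the 7 coloured points lie at the lower left.

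The spread of the differences was wider in dim probe sets. The dimmest quartile of tested probe sets (means of 20.9 to 47.6) had an SD of 0.534, 0.521 and 0.562 in the 3 lines, and the brightest quartile (222.0 to 6003) had 0.191, 0.267 and 0.209. In the brightest quartile 3 probe sets were at least 2-fold lower in every line and 0 higher, and in the dimmest 1 was lower and 1 higher. The share of probe sets whose experiments did not overlap was 9.23%, 10.8%, 10.6% and 7.84% from the dimmest quartile to the brightest, so that it did not follow the spread. In bulk RNA such as this, fewer cells with a transcript and less of the transcript per cell cannot be told apart.

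The brighter of the lower probe sets belonged to genes of general cell functions that are not known as one pathway. Dynll2 encodes a light chain of cytoplasmic dynein, the motor that carries cargo along microtubules, and the same small protein binds many partners outside the motor. Its probe set 101929_at read 343.6, 361.8 and 395.8 in experiment 1 and 95.8, 96.6 and 85.8 in experiment 2. The lines lay close together within each experiment and the experiments were far apart, with a log2 difference of -1.98 ± 0.12 (SE, n = 3 lines; limma adjusted p = 0.132), or 3.96-fold lower. Leaving out any 1 line left it at -2.06 to -1.87.

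Ube2s encodes the ubiquitin-conjugating enzyme that lengthens ubiquitin chains on substrates of the anaphase-promoting complex, the ligase that drives cells out of mitosis. It was the brightest of these probe sets, at 977.9, 971.6 and 999.1 in experiment 1 and 452.1, 449.5 and 396.4 in experiment 2. Within each experiment the 3 lines were nearly level, and the difference was -1.19 ± 0.11 (SE, n = 3 lines; limma adjusted p = 0.32).

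Lmnb1 encodes lamin B1, a filament protein of the nuclear lamina that holds chromatin to the nuclear envelope. Its intensity was 607.4, 530.7 and 540.8 in experiment 1 and 197.5, 244.6 and 140.3 in experiment 2. The lowest array of experiment 1 was above 2 times the highest of experiment 2, and the mean difference was -1.56 ± 0.18 (SE, n = 3 lines; limma adjusted p = 0.402). In null line 2 the difference reached -1.95, against -1.12 in null line 1.

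Tmed9, Ap2b1 and Psap were also among the lower genes with the smallest p. Tmed9, a cargo receptor of the early secretory pathway, read 291.5, 351.7 and 285.5 in experiment 1 and 94.8, 152.3 and 63.0 in experiment 2. That is a difference of -1.67 ± 0.21 (SE, n = 3 lines; limma adjusted p = 0.438), with null line 2 lowest. Ap2b1, a subunit of the clathrin adaptor AP-2 that sorts cargo at the plasma membrane, read 186.9, 185.6 and 135.5 against 87.7, 100.2 and 58.2.

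The difference of Ap2b1 was -1.07 ± 0.12 (limma adjusted p = 0.402), and in each experiment null line 2 was lowest. Psap encodes prosaposin, the precursor of the saposins, which help lysosomal enzymes to break down sphingolipids. Its probe set 97560_at read 87.8, 61.4 and 54.4 in experiment 1 and 32.8, 23.8 and 32.4 in experiment 2, a difference of -1.18 ± 0.17 (limma adjusted p = 0.524). Rraga, a small GTPase that brings the growth kinase mTORC1 to the lysosome when amino acids are present, read 415.7, 384.1 and 380.6 against 282.9, 214.0 and 242.6. Its difference was -0.68 ± 0.11 (limma adjusted p = 0.525), and no array of experiment 2 reached the level of any array of experiment 1.

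Dimmer probe sets completed the 12 lower genes with the smallest p. Map3k11, a kinase upstream of the stress kinase JNK, read 32.0, 38.4 and 40.2 in experiment 1 and 10, 16.8 and 18.9 in experiment 2 (-1.32 ± 0.15). In experiment 2 only 2 of its 3 arrays were above the highest background control. Map3k11 and Rad9a entered the test through experiment 1, with geometric means of 36.7 and 29.5 against 14.7 and 17.9 in experiment 2. Bdkrb1 (a bradykinin receptor), Clcn4 (an endosomal chloride and proton exchanger), Bcl2l10 (a BCL2 family member) and Rad9a (part of the checkpoint clamp loaded at damaged DNA) had differences of -0.79, -0.79, -0.74 and -0.72. All 4 were brightest at under 100 intensity units, and none had overlapping experiments. They were picked by small p, which selects for such a gap, and 4.67% of all tested probe sets were lower without overlap. The unnamed probe set 102796_at, for which no single gene is listed, read 158.3, 205.0 and 120.7 in experiment 1 and 67.5, 86.3 and 43.5 in experiment 2 (-1.32 ± 0.11; limma adjusted p = 0.305), and the order of the lines was the same in both experiments.

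The calls differed between the alternatives, which changed the values, the probe sets tested or the estimate of the spread. Dynll2 and Ube2s passed limma's test in 4 of 13 alternatives, 102796_at in 3, and Tmed9, Lmnb1 and Ap2b1 in 2. Over the 13 alternatives, limma's adjusted p of Dynll2 ran from 0.000814 to 0.82 and that of Ube2s from 0.00274 to 0.82, while their differences stayed between -2.06 and -1.82 and between -1.22 and -1.11. The line is a block in the main model; in the alternative with no replicate block, which takes the 3 lines as plain replicates, 2 probe sets passed, Dynll2 (limma adjusted p = 0.00355) and Ube2s (limma adjusted p = 0.0477).

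**Figure D2:**
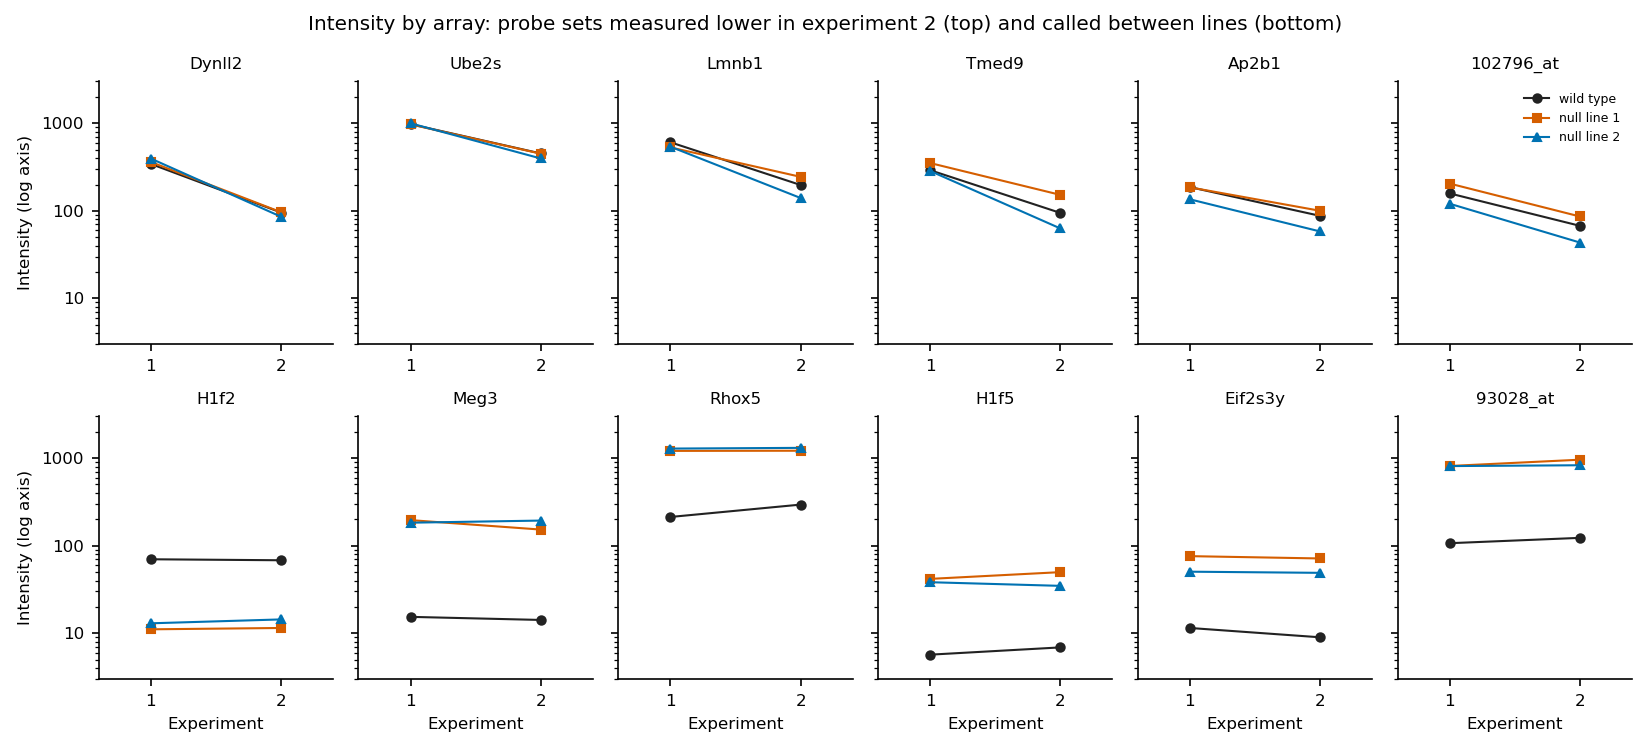
Intensity on each array (log axis) in experiment 1 and experiment 2, with 1 line of the plot for each cell line, for 6 probe sets lower in experiment 2 (top) and 6 probe sets that differed between lines (bottom). In the top row every line of the plot slopes down (Dynll2 from 343.6 to 95.8 in wild type), whereas in the bottom row the wild type stands apart from both null lines at both experiments (H1f2 at 70.0 and 68.2 against 11.1 to 14.4).

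Over the quartiles from dimmest to brightest, the 369 higher probe sets without overlap numbered 97, 111, 97 and 64, and the 348 lower ones 75, 91, 100 and 82. Among the 12 genes with the smallest p on the higher side, 8 stayed under 100 intensity units on every array, against 6 of the 12 lower genes. Differences ran from 0.57 to 1.46, limma's adjusted p from 0.402 to 0.552, and the experiments did not overlap in any of the 12. The 12 were picked by small p, so that a gap between the experiments is part of what was selected. Over all tested probe sets, 4.95% were higher without overlap.

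Hoxb5, a homeobox transcription factor that patterns the body axis and is normally low in embryonic stem cells, read 9.9, 11.9 and 21.9 in experiment 1 and 28.8, 28.0 and 43.9 in experiment 2. The difference was 1.26 ± 0.14 (SE, n = 3 lines; limma adjusted p = 0.402), and in experiment 1 only 2 of 3 arrays were above background. It entered the test through its level in experiment 2, with a geometric mean of 32.8 against 13.7 in experiment 1. Hoxb5 was not the only such case. Celsr2 (20.4), and Sox17 (18.4), Sox7 (16.6), Ifitm2 (18.3) and Eno2 (20.1) of the gene lists below, also had experiment 1 geometric means under the 20.9 limit. Atm, the kinase that senses DNA double-strand breaks, read 42.2, 44.0 and 55.9 in experiment 1 and 77.1, 106.2 and 101.6 in experiment 2. Every line was higher in experiment 2, by 1.0 ± 0.13 on the log2 scale (limma adjusted p = 0.524).

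Akap12, a scaffold that anchors protein kinase A near the plasma membrane, was the brightest gene on this side. It read 392.2, 372.3 and 319.0 in experiment 1 and 650.5, 616.3 and 461.6 in experiment 2, and its difference was 0.66 ± 0.11 (SE, n = 3 lines; limma adjusted p = 0.525). In both experiments null line 2 was lowest, and its array of experiment 2 was still above all arrays of experiment 1.

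Of the transcription factors, Zbtb12, a zinc finger protein, read 27.3, 22.8 and 19.6 against 49.0, 56.3 and 70.1 (1.33 ± 0.21; limma adjusted p = 0.524), with the order of the lines reversed between experiments. Zfp148, another zinc finger protein, read 31.7, 26.8 and 26.7 against 46.2, 46.4 and 50.1 (0.75 ± 0.12). Celsr2, a cadherin of planar cell polarity, had 16.6, 24.8 and 20.6 in experiment 1 and 27.7, 45.0 and 50.5 in experiment 2 (0.96 ± 0.15). These 3 genes were dim in both experiments, and in each the lowest array of experiment 2 was above the highest of experiment 1. Cln8, a membrane protein of the endoplasmic reticulum, read 50, 44.0 and 57.9 against 78.0, 70.5 and 110 (0.75 ± 0.12). The secreted immune factors Lta (lymphotoxin alpha, 0.70 ± 0.10) and Ccl1 (a chemokine, 0.73 ± 0.13) were dim throughout, Lta at 24.4 to 25.5 and then 37.6 to 42.6. Ankrd40 (an ankyrin repeat protein) and Aak1 (a kinase that phosphorylates AP-2) completed the 12, at 0.62 ± 0.11 and 0.57 ± 0.10. Prp2, a proline-rich protein gene, had the largest difference, 1.46 ± 0.24, from 29.2, 33.3 and 33.0 to 123.1, 89.0 and 60.9.

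**Figure D3:**
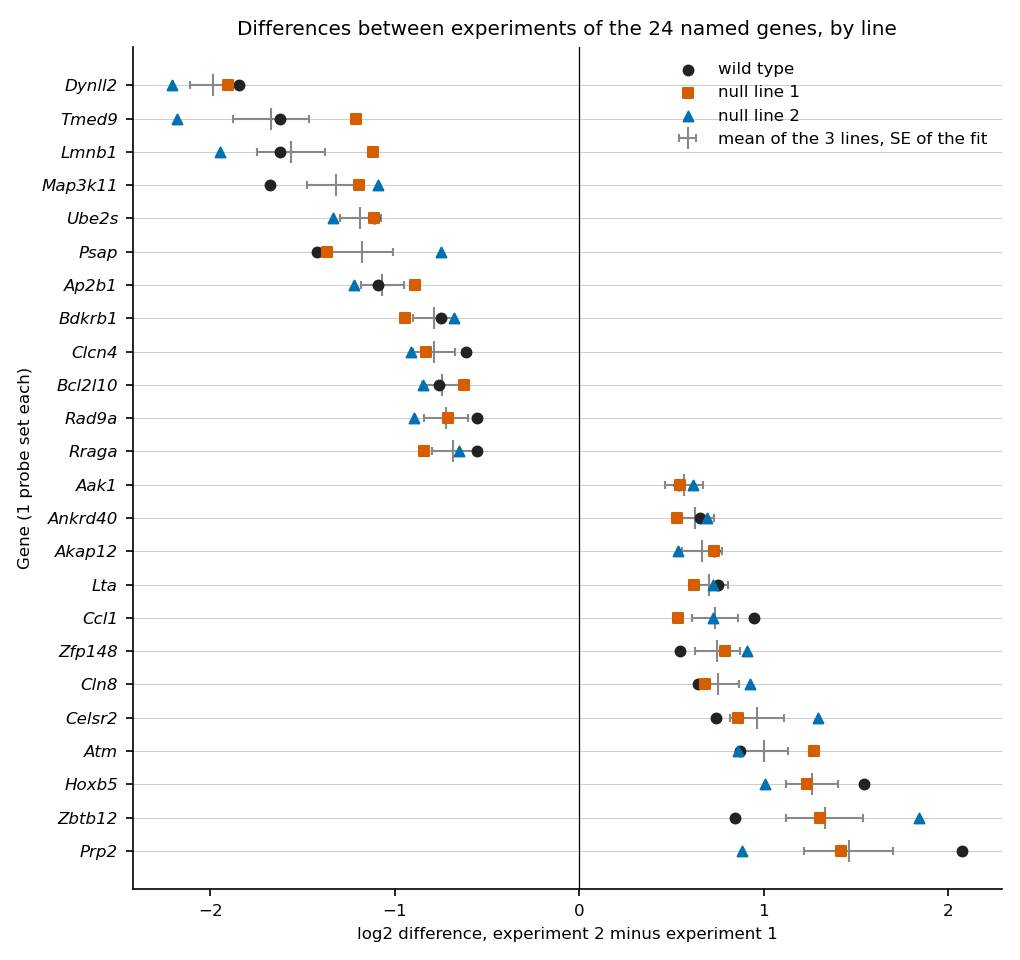
Log2 difference between experiments (x axis) in each line for the 12 lower and 12 higher genes with the smallest p, 1 probe set each, with the mean of the 3 lines and the SE of the fit as a grey bar. All 24 genes have their 3 points on one side of 0, from -1.98 for Dynll2 to 1.46 for Prp2 in the mean, and none of the 24 passed the adjusted threshold. Picking by p selects for one direction, and over all tested probe sets 14.6% were higher and 14% lower in every line.

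Few of these differences were seen by another probe set of the same gene. For the 24 genes the array had 8 further tested probe sets, in 7 genes, of which 4 had the same direction and 1 showed at least 0.5 times the log2 difference. That 1 belonged to Psap: 97114_at, the brightest Psap probe set, read 529.0, 449.5 and 417.2 in experiment 1 and 234.6, 288.1 and 229.1 in experiment 2 (-0.89 ± 0.14; limma adjusted p = 0.524). The third Psap probe set, 161476_at, read 88.1, 107.6 and 106.8 against 119.0, 105.1 and 99.8, so that it was higher in wild type and slightly lower in the null lines (0.10 ± 0.15; limma adjusted p = 0.924).

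The second Dynll2 probe set, 161960_f_at, read 65.9, 73.7 and 76.2 in experiment 1 and 64.3, 65.2 and 62.4 in experiment 2. It had the same direction in every line but a difference of -0.17 ± 0.11 (limma adjusted p = 0.836), against -1.98 for 101929_at. The Prp2 probe sets went different ways. While 93651_r_at was higher in experiment 2, 93650_i_at read 28.2, 127.2 and 26.7 in experiment 1 and 28.3, 106.3 and 24.5 in experiment 2, so that it set null line 1 apart in both experiments and differed between experiments by -0.13 ± 0.11. For Celsr2, Ankrd40, Aak1 and Clcn4 the other tested probe sets gave 0.26, 0.15, -0.21 and 0.11, against 0.96, 0.62, 0.57 and -0.79 for the named ones. Ube2s, Lmnb1, Tmed9, Ap2b1, Atm and Akap12 have 1 probe set each listed with that gene alone, so none can be set beside it.

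Actb, the cytoskeletal actin whose messenger is also measured by control probe sets at the 5', middle and 3' parts, also gave different values by probe set. Its probe set 101578_f_at read 312.1, 305.2 and 220.1 in experiment 1 and 258.6, 106.0 and 44.6 in experiment 2 (-1.37 ± 0.39; limma adjusted p = 0.73). A second, 95705_s_at, read 110.6, 138.9 and 107.8 against 78.8, 47.4 and 41.8 (-1.14 ± 0.23; limma adjusted p = 0.634). The 3' control for the same gene ran the other way, at 4336, 3621 and 3750 in experiment 1 and 4401, 4035 and 4381 in experiment 2, or 0.02, 0.16 and 0.22 higher on the log2 scale. The middle control was higher by 0.04, 0.45 and 0.35, and the 5' control by 0.05, 0.25 and 0.18. In all 5 probe sets of Actb the null lines differed more between experiments than the wild type did.

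**Figure D4:**
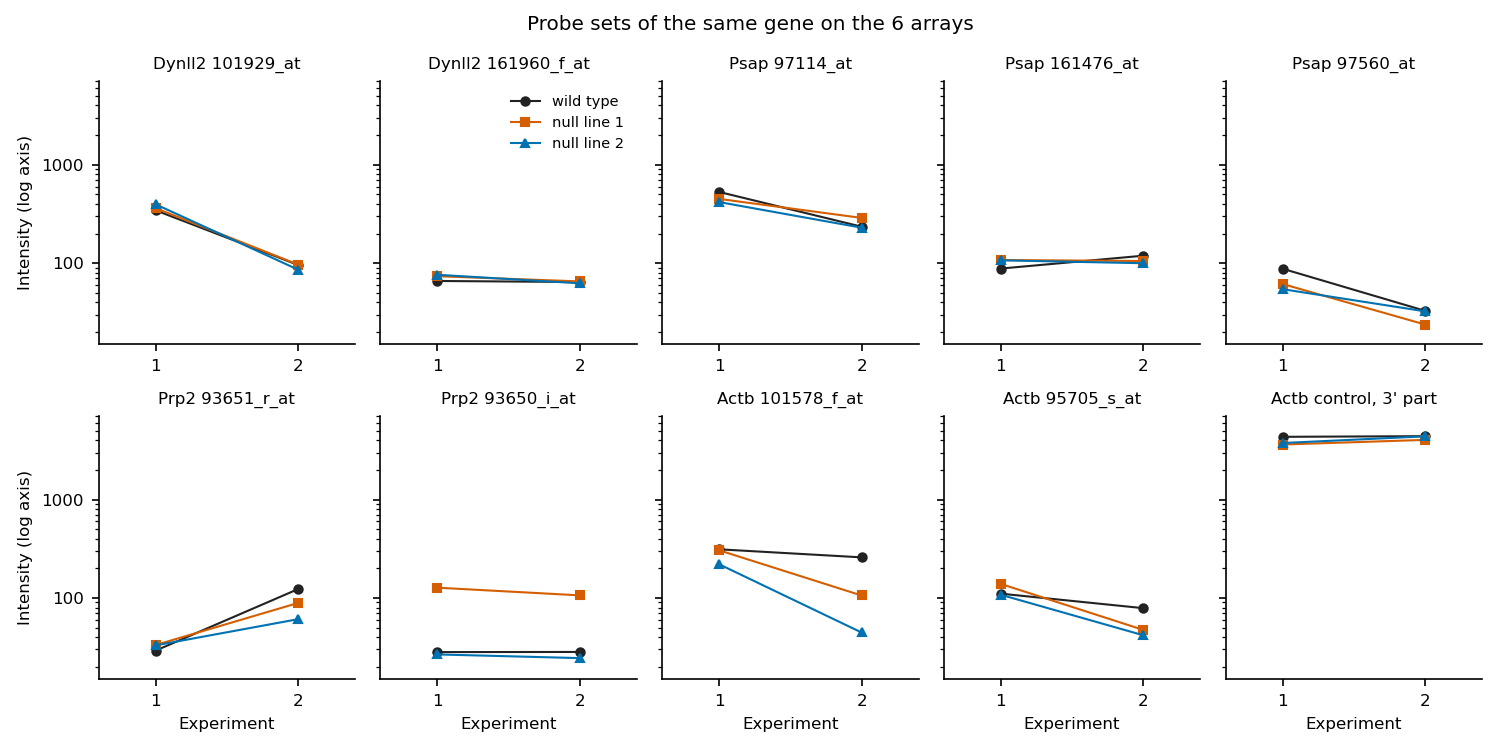
Intensity (log axis) in both experiments for probe sets of Dynll2, Psap, Prp2 and Actb, with 1 line of the plot for each cell line. Dynll2 101929_at and 161960_f_at differ in slope (-1.98 and -0.17 in the mean log2 difference), Psap 97114_at and 97560_at slope down alike, and the bright Actb control stays between 3621 and 4401 while both dimmer Actb probe sets slope down.

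Genes that work with the lower genes were examined next; they were chosen after the lower genes were known, and are given as values. Over 28 tested probe sets of 21 such genes the differences lay between -0.34 and 0.25, and none passed limma's adjusted threshold. Ube2s stands beside Cdc20, which activates the anaphase-promoting complex: Cdc20 read 1254.8, 1169.7 and 1372.3 in experiment 1 and 1108.3, 1221.3 and 1393.4 in experiment 2 (-0.03 ± 0.11). Ube2c, the enzyme that starts the chains Ube2s lengthens, had -0.17 ± 0.33, and the complex subunit Anapc5 -0.13 ± 0.10.

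Dynll1, the close relative of Dynll2, read 2290.0, 2207.6 and 2606.4 in experiment 1 and 2280.8, 1965.8 and 2475.1 in experiment 2 (-0.08 ± 0.10), and the dynein heavy chain Dync1h1 had 0.09 ± 0.12. Among genes of the nuclear envelope beside Lmnb1, emerin (Emd) read 268.1, 264.6 and 210.7 against 207.4, 213.5 and 167.6 (-0.34 ± 0.10; limma adjusted p = 0.73). Lamin A (Lmna), lamin B2 (Lmnb2), the lamin B receptor (Lbr) and Tmpo, which tethers chromatin to the lamina, had probe sets between -0.11 and 0.11. The other tested AP-2 subunits and Ap1b1 lay between -0.19 and 0.25, Tmed3 and the coat protein Copa at 0.00 and 0.20, and the lysosomal genes Lamp1, Lamp2, Ctsb, Ctsd and Asah1 between -0.32 and 0.18.

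No gene list held a gene that passed the test. Of 38 lists, 35 had at least 5 tested genes, each gene read from its brightest probe set, and limma called 0 of the genes in every one. List medians ran from -0.12 to 0.11, beside a median of 0.00 over the 5654 genes tested, of which 838 were higher in every line (14.8%) and 803 lower in every line (14.2%). Experiments did not overlap for 286 of these genes with experiment 2 higher (5.06%) and 251 with it lower (4.44%). In 28 of the 35 lists the medians of the 3 lines differed in sign, and in 7 they had one sign. Rescaling the arrays in 3 ways turned the sign of 9 list medians, all of them within 0.02 of 0: S phase, cholesterol synthesis, chromatin factors, heat shock, interferon, ribosomal proteins, trophoblast, germline and Hippo target genes.

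More genes of mitochondrial energy supply were measured lower than higher, by a small amount. Of 58 tested genes of oxidative phosphorylation, the respiratory chain and ATP synthase of mitochondria, 43 were lower and 15 higher in experiment 2. In every line 17 were lower (29.3%, against 14.2% of all genes) and 5 higher (8.62%, against 14.8% of all genes). The median was -0.07, with -0.07 in wild type, -0.01 in null line 1 and -0.09 in null line 2, and it was -0.06 under all 3 rescalings of the arrays, beside -0.01 for the brightest quartile of all tested probe sets. Ndufc1, a subunit of complex I, read 403.1, 414.7 and 406.6 in experiment 1 and 324.3, 362.2 and 287.1 in experiment 2 (-0.34 ± 0.12; limma adjusted p = 0.734). Cycs, cytochrome c, had -0.46 ± 0.18 and the complex III subunit Uqcrh -0.24 ± 0.10, while Atp5d of ATP synthase had 0.37 ± 0.17. The 18 glycolysis genes had a median of -0.02. Among them, Eno2, the neuronal form of enolase, read 19.2, 19.2 and 21.9 against 33.3, 33.9 and 25.0 (0.60 ± 0.16), and Aldoc, a brain form of aldolase, had -0.36 ± 0.11.

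Protein and RNA handling showed medians of like size. In the proteasome, 23 of 29 genes were lower and 6 higher. In every line 9 were lower (31.0%, against 14.2% of all genes) and 0 higher (against 14.8% of all genes). The median was -0.06, with -0.09 in wild type, 0.01 in null line 1 and -0.04 in null line 2. The largest lower values were small, such as -0.20 ± 0.12 for Psmd7 and -0.19 ± 0.10 for Psmd8, and Psmd11 had 0.25 ± 0.16. Of 29 splicing and hnRNP genes 21 were lower, with a median of -0.06. By line the medians differed in sign, at 0.03 in wild type, -0.14 in null line 1 and -0.01 in null line 2. The gene with the largest difference was higher: Sf3b1, the branch site factor, read 275.8, 188.2 and 122.8 in experiment 1 and 296.5, 353.9 and 420.6 in experiment 2 (0.93 ± 0.32; limma adjusted p = 0.734). The order of the lines for Sf3b1 was reversed between experiments, and wild type differed least. Ribosomal proteins were level, with 22 genes between -0.12 and 0.12 and a median of -0.01. Of 16 endoplasmic reticulum chaperone genes 12 were lower (median -0.09), among them the disulfide isomerase Pdia3 at -0.35 ± 0.13, while Sel1l, which serves degradation of misfolded proteins, had 0.35 ± 0.12. Cytosolic chaperones and heat shock genes (22, median -0.01) and the amino acid starvation response (24, median -0.04) had none with an unadjusted p under 0.05.

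Among 24 genes of oxidative stress, 18 were lower, with a median of -0.05. Sod1, the cytosolic superoxide dismutase, stood out by its brightness: it read 967.7, 1001.5 and 1028.4 in experiment 1 and 629.5, 749.5 and 568.2 in experiment 2. The experiments did not overlap and the difference was -0.63 ± 0.13 (SE, n = 3 lines; limma adjusted p = 0.634). Of the 24 genes, 3 were lower without overlap, beside 4.44% of all genes tested. Gpx4, which removes lipid peroxides, read 487.2, 490.3 and 495.0 against 394.6, 399.6 and 414.1 (-0.29 ± 0.10), whereas Sod2, the mitochondrial dismutase, had 0.27 ± 0.11. Without null line 1 the median of this list was 0.00. The bright metallothioneins Mt1 and Mt2, which bind zinc and respond to metals in the medium, had -0.19 ± 0.10 and -0.04 ± 0.11, and Mt3 had 0.28 ± 0.12.

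Genes that answer to serum, nutrients and cell density were near 0 as groups. The 19 immediate early genes, induced within minutes of growth factor addition, had a median of -0.02. Fos alone of these had an unadjusted p under 0.05 (0.0246 by limma, adjusted p = 0.73), at 27.5, 25.7 and 25.5 in experiment 1 and 38.3, 29.3 and 34.6 in experiment 2 (0.37 ± 0.12). Cholesterol synthesis (15 genes) had a median of -0.01, with Cyp51 at 67.5, 76.4 and 64.0 and then 86.9, 94.9 and 83.4 (0.35 ± 0.10). The 12 hypoxia response genes had a median of 0.05, with Egln1, the oxygen sensor that marks HIF for destruction, at 0.50 ± 0.17 and the disulfide oxidase Ero1a at 0.33 ± 0.11. Pfkfb3, a regulator of glycolysis on the same list, had -1.18 ± 0.67, which rested on null line 2: its array of experiment 2 read 6.1, at background, after 58.9 in experiment 1, against -0.08 in wild type and -0.18 in null line 1. Fatty acid synthesis and storage (14 genes) had a median of -0.04 and no unadjusted p under 0.05. Of the 12 p53 targets the cell cycle inhibitor Cdkn1a was measured lower, at 197.4, 126.7 and 111.5 and then 119.2, 97.5 and 91.4 (-0.46 ± 0.13; limma adjusted p = 0.73); its wild-type array of experiment 2 lay within the range of the null lines in experiment 1.

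The cell cycle lists showed no common direction. Of 33 S phase and replication genes 7 were higher (21.2%) and 9 lower (27.3%) in every line, with a median of 0.01. Over all genes tested the shares were 14.8% higher and 14.2% lower. Slbp, the histone messenger binding protein of S phase, had 0.25 ± 0.10 and the helicase subunit Mcm5 0.26 ± 0.13, whereas the primase subunit Prim1 had -0.23 ± 0.11. Of 33 mitosis genes 8 were higher (24.2%) and 5 lower (15.2%) in every line, with a median of 0.00 and values between -0.21 and 0.28. Ube2s, at -1.19, lay outside that range. It was picked from all tested probe sets by its small p, so the contrast says nothing about mitosis genes. The MYC network and nucleolus list (26 genes) had a median of 0.01.

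Pluripotency genes were near level, with 15 of 33 higher, 18 lower and a median of -0.04. Esrrb, an orphan nuclear receptor of the naive state, read 44.7, 47.8 and 55.1 in experiment 1 and 26.2, 41.0 and 35.5 in experiment 2 (-0.54 ± 0.15; limma adjusted p = 0.717). Klf5, a Krüppel-like factor of the same network, read 372.4, 422.8 and 358.4 against 271.1, 347.9 and 282.4 (-0.36 ± 0.11; limma adjusted p = 0.73). Esrrb and Klf5 were the only 2 of the 33 genes that were lower without overlap, beside 4.44% of all genes tested. Zfp42 (Rex1) had -0.32 ± 0.13 and the growth factor Fgf4 0.25 ± 0.11. Lineage lists had members on both sides. Of 11 extraembryonic endoderm genes 7 were higher and 4 lower: the dim transcription factors Sox17 and Sox7 had 0.54 ± 0.15 and 0.72 ± 0.27, and the brighter Gata4 had -0.23 ± 0.13, at 127.3, 122.7 and 110.2 and then 119.6, 89.1 and 100.6. Of 12 trophoblast genes 6 were higher and 6 lower, with Ascl2, a transcription factor, at -0.59 ± 0.20 and Tfap2c, another, at 0.18 ± 0.11. Of 14 neuroectoderm genes 9 were higher and 5 lower, with the transcription factors Zic2 and Irx3 at -0.68 ± 0.39 and -0.44 ± 0.25 and the filament gene Nes at 0.20 ± 0.12. Zic2 and Irx3 had experiment 2 geometric means of 15.6 and 19.4, under the 20.9 limit. Their wild-type readings in experiment 2, 9.4 and 13.2, were at background.

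In signalling and chromatin lists 2 genes had smaller p than most. Tle4, a Groucho co-repressor that acts with WNT-pathway factors, read 63.7, 70.0 and 73.2 in experiment 1 and 96.0, 113.3 and 100.5 in experiment 2 (0.58 ± 0.11; limma adjusted p = 0.58), and the WNT receptor Fzd7 had -0.60 ± 0.17. Smarcc1, a core subunit of the BAF chromatin remodelling complex, read 283.5, 234.2 and 243.9 against 376.3, 355.9 and 383.1 (0.55 ± 0.11; limma adjusted p = 0.634). The other 32 genes of the chromatin list had no unadjusted p under 0.05, and the list's median was 0.00. Of the 9 histone genes tested (median 0.11), H1f1, a linker histone that was not targeted, read 17.2, 30.8 and 21.4 against 25.8, 34.2 and 33.1 (0.46 ± 0.14). Interferon and MHC class I genes (18) had a median of -0.01, with the dim Ifitm2 at 0.56 ± 0.12 (limma adjusted p = 0.634). Of 28 imprinted genes, Plagl1, a zinc finger factor, had 0.49 ± 0.13, and its wild-type arrays were the brightest of each experiment at 54.1 and 67.5.

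**Figure D5:**
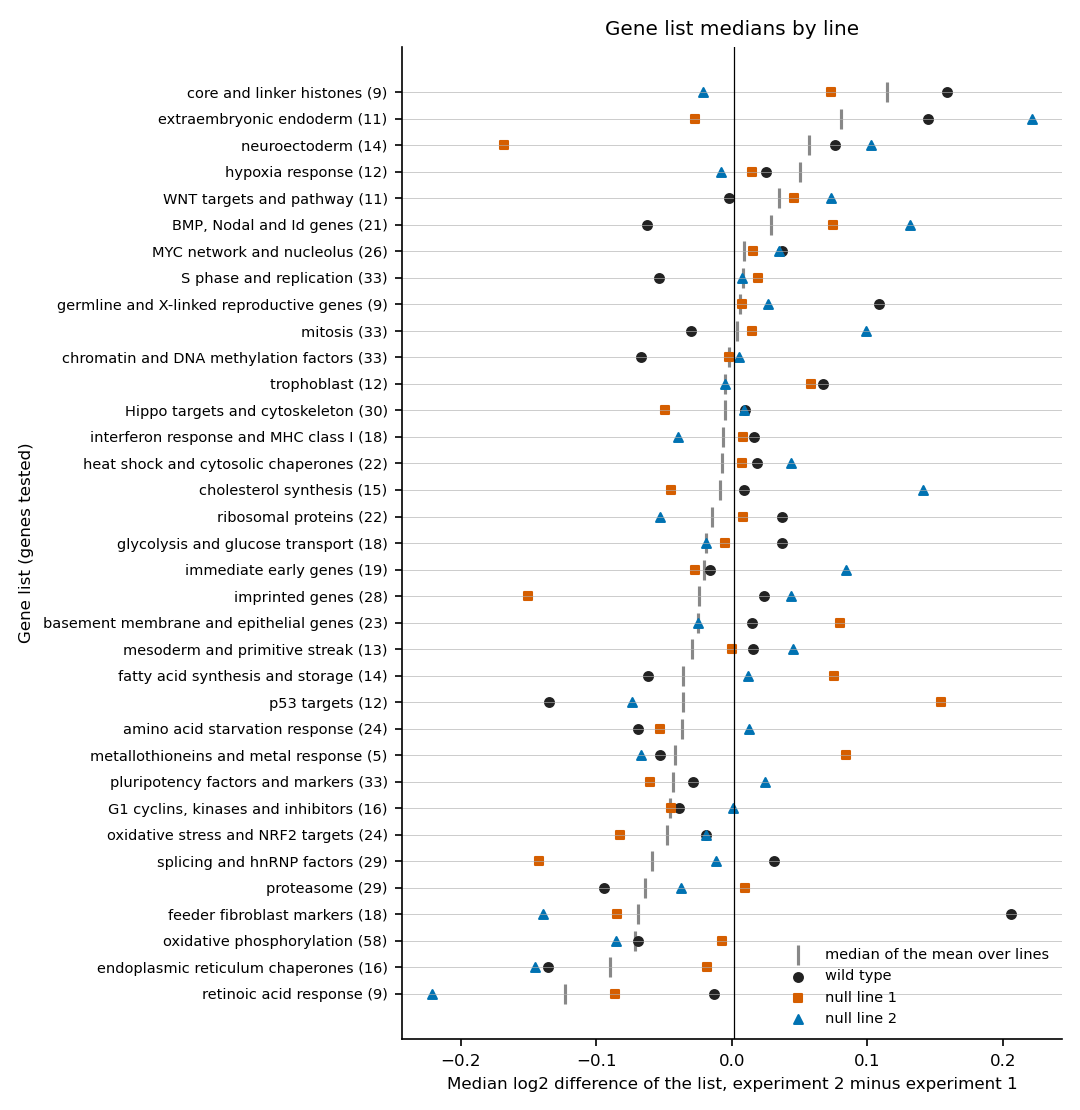
Median log2 difference between experiments (x axis) of the tested genes of each of 35 lists (y axis, number of genes in parentheses), in each line and for the mean over lines, with a vertical line at the median of all genes tested. All medians over lines lie between -0.12 and 0.11, and in 28 lists the 3 lines fall on both sides of 0; feeder fibroblast markers are at 0.21 in wild type, -0.08 in null line 1 and -0.14 in null line 2.

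Differences between the 3 lines passed a test in the same model for a few probe sets. Limma's F test, over 2 degrees of freedom, called 9 probe sets (0.121%), and at an unadjusted p under 0.05 there were 872 (11.7%). The number of calls changed with the filter and with the lines kept: limma called 0 with no filter, 0 without wild type, 0 without null line 1 and 5 without null line 2. A fit without a line has fewer arrays, and without wild type it holds no difference between null and wild type. These counts therefore cannot show whether a call rests on a single line. Of the 9, Prp2 93650_i_at set null line 1 apart and 162020_at null line 2 (43.6, 32.5 and 10.3 in experiment 1 and 44.1, 34.2 and 9.2 in experiment 2). Both null line 2 readings of 162020_at were at background. All 9 overlapped between experiments, and their experiment differences lay between -0.16 and 0.50 with limma adjusted p of 0.776 to 0.974. Meg3, an imprinted noncoding RNA, read 15.4, 195.9 and 183.1 in experiment 1 and 14.2, 152.8 and 193.6 in experiment 2, where the wild type was at background. Rhox5, an X-linked homeobox gene, read 212.8, 1209.2 and 1285.3 and then 294.6, 1214.4 and 1309.6. H1f5, a linker histone that was not targeted, read 5.7, 41.8 and 38.3 and then 6.9, 49.9 and 34.8, with the wild type at background on both arrays. The Y-linked translation factor gene Eif2s3y read 11.5, 76.0 and 50.5 and then 9.0, 71.5 and 49.0, with the wild type at background in experiment 2. The F test used both experiments, so that a repeat in both is part of what it selects. Over all tested probe sets, the null minus wild-type differences of the experiments correlated with an r of 0.33, with no array in both.

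Whether the experiment difference itself depended on genotype was asked with an interaction term. Limma called 0 probe sets (0%), with 350 at an unadjusted p under 0.05 (4.7%) and a smallest adjusted p of 0.39. The 3 genes with the smallest p had the wild type moving against both null lines, at low intensity. Only 2 of 3 arrays were above background for Sstr2 and Scx in each experiment, and for Wnk1 in experiment 1. Sstr2, a somatostatin receptor, read 5.6, 26.7 and 22.8 in experiment 1 and 48.1, 24.2 and 15.2 in experiment 2. Scx, a transcription factor of tendon, read 86.6, 10.5 and 22.9 and then 16.5, 43.6 and 55. Wnk1, a kinase that regulates ion transport, read 67.5, 12.5 and 12.2 and then 26.3, 31.9 and 36.7. Over the 10 alternatives that allow this test, limma's adjusted p of Scx ran from 0.0164 to 0.82, and it passed in 2 of them, a pseudocount of 16 and a prior that follows the signal.

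Markers of the labelled cell type were present on every array: all 10 markers of undifferentiated embryonic stem cells were above background throughout, with a summed intensity of 8074 to 9127 in experiment 1 and 8001 to 8607 in experiment 2. Of 15 feeder fibroblast markers on the array, 7 were above background on all arrays and Prrx1 was at background on all, and their sum was 1089 to 1335 in experiment 1 and 1052 to 1323 in experiment 2. Sums for 7 extraembryonic endoderm markers were 238.2 to 283.6 and 193.9 to 304.3, and for 4 mesoderm markers 145.9 to 167.1 and 137.0 to 194.1. Sums for 5 neuroectoderm markers were 275.8 to 278.5 and then 300.6 to 342.1, without overlap; Nes, which was the only one of them above background on all arrays, did overlap (222.3 to 249.2 and 241.6 to 299.2). For 5 trophoblast markers the ranges were 432.8 to 469.1 and 462.0 to 521.7, with Cdx2 and Elf5 at background on all arrays. The part of other cell types in the differences above was not tested.

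Hybridisation controls also differed between the experiments. Of 9 probe sets for spiked bacterial transcripts 8 were lower in every line in experiment 2, between -0.51 and 0.07 on the log2 scale, with a median of -0.03 in wild type, -0.29 in null line 1 and -0.14 in null line 2. The 3' probe set for 18S ribosomal RNA read 47.8, 46.0 and 45.6 in experiment 1 and 35.1, 26.3 and 40.6 in experiment 2. For Actb the 3' over 5' control ratio, which rises when messenger is degraded or incompletely copied, was 0.21 to 0.40 on the log2 scale in experiment 1 and 0.25 to 0.31 in experiment 2, and that of Gapdh -0.25 to -0.16 and -0.26 to -0.13. Their part in the differences between experiments was not tested.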

How the data were processed

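The deposited values are intensities on a linear scale, 1 per probe set and array, which the authors made with MAS5, according to the submitters' processing notes (version not given in the sources used here), and the common trimmed mean (2% left out at each end) was kept as the scaling. Gene names came from the array's platform annotation, with 10817 of 10833 single-gene probe sets matched to a current symbol (RefSeq, GRCm38.p6), 396 listed with several genes and 1193 with none. Tests left out 66 control probe sets.

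Values were floored at 1, which touched 0 tested probe sets, and log2 transformed. Probe sets at or above the 40th percentile of mean intensity were fitted with limma 3.58.1 in R 4.3.3 (lmFit, eBayes; residual df 2, prior df 2.97), with terms for line and experiment; line differences were taken from the same fit and the interaction with the null genotype from a second. Benjamini-Hochberg adjustment ran over all 7453 tested probe sets. The procedure was tested on simulated data. The line is the block because the same line was measured in each experiment: deviations of same-line arrays from their experiment means correlated with r = 0.33, 0.09 and 0.28 in wild type, null line 1 and null line 2.

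Named genes include the 12 with the smallest p on each side of the mean difference, among probe sets with 1 gene. None of these passed the threshold, and 1 direction in every line was not required, though all had it. Also named are the 3 with the smallest interaction p, the probe sets without a single gene with the smallest p, all 9 called between lines, and up to 4 members of each list. The members and lists were chosen with earlier results of these data known. Partner genes of the lower genes, and Actb's control probe sets, were chosen after their values were seen. A probe set at or below an array's highest background control is called at background. There are 3 arrays per group, and their number limits the precision. Plots used Python 3.11.15 and matplotlib 3.10.9.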

Additional observations from a re-analysis of the deposited data

How the results depend on the processing

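Alternatives were 2 pseudocounts, no filter and a stricter one, 3 rescalings, 2 other priors, no replicate block, and each line left out. Calls between experiments, 0 in the main analysis, were 3 with a pseudocount of 16, 6 with a filter at the 60th percentile, 6 with a prior that follows the signal, and 2 with no replicate block, that is without the pairing by line; they were 0 in the others and with any line left out (0 to 0). The 6 probe sets were the same in both cases with 6 calls. Calls between lines, 9 in the main analysis, were 16, 30 and 61 with the first 3 of these, 0 with no filter, and 0 to 5 with a line left out. Interaction calls were 1 with a pseudocount of 16 and 5 with a prior that follows the signal; with a line left out no residual degrees of freedom remain and there is no test. Of 2141 values for 169 named results, 2120 kept direction and side of the threshold, 17 passed it in addition and 4 turned direction with a line left out. Leaving out each line gave -0.430 to 0.0241 for Hk1, -0.342 to 0.000739 for Mxi1 and -0.0775 to 0.0375 for Snhg5, each above 0 without null line 1, and -0.105 to 0.00845 for Mt2, above 0 without wild type. Of 455 list medians, 29 moved by more than the spread between lines. With 3 arrays a group, differences in dim probe sets (SD 0.521 to 0.562) are the least certain.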
